A study of Mus musculus with 6 samples.

Results

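A set of 33 macrophage genes was followed in bulk RNA from the growing end of the mouse incisor. The members were chosen by name, as a list of gene symbols, with earlier results of these data known. All 33 were found among the 25700 genes of the count table and among the 19264 that had enough counts to be tested. The list separates 5 genes of the resident type of macrophage, 23 general myeloid genes and 5 genes of lysosomal activation.

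Macrophages are tissue phagocytes that depend on signalling through the CSF1 receptor and on the transcription factor PU.1. They recognise dying cells, immune complexes and sugars with surface receptors, tag debris with complement C1q and break down what they take up in lysosomes. Macrophages that settle in a tissue and lie along its vessels are commonly recognised by the uptake receptors LYVE1, FOLR2, CD206, CD163 and TIM4, while TREM2, GPNMB and CD68 mark cells with a heavy load of lysosomal work. In the tooth, macrophages live in the pulp and in the follicle around the root, where they share a lineage with the osteoclasts that resorb bone.

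The study compared 3 cKO mice of the genotype Gli1-CreERT2;Runx2fl/fl with 3 control mice of the genotype Runx2fl/fl, to ask what loss of the bone and tooth transcription factor Runx2 does in cells that express Gli1. Both groups were C57BL/6, carried floxed Runx2 alleles and, per the labels' protocols, were given tamoxifen (1.5 mg per 10 g body weight, in corn oil at 20 mg/ml) by intraperitoneal injection on 3 successive days from 1 month of age. The samples are labelled dental mesenchyme at an age of 5 weeks, 1 week after induction, and the RNA came from the proximal incisor. The Cre recombinase is driven from the Gli1 locus, which in the incisor is active in stem cells at the proximal end, and the labels place it in no macrophage. The controls carry no Cre, so loss of Runx2, the activated Cre itself and its place in the Gli1 locus cannot be told apart. Mice are numbered here within each group, and a number pairs no cKO mouse with a control.

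Levels are given in CPM (counts-per-million of the scaled library total). Runx2 checked the labels, at 62.6, 54.0 and 49.0 CPM in the 3 cKO mice against 79.7, 77.7 and 81.2 CPM in the 3 controls. Gli1 itself was lower too, at 75.0, 77.9 and 70.6 CPM in cKO mice against 159, 89.7 and 207 CPM in controls. The part of lower Gli1 in the results was not tested. Libraries held 53525185 to 66694240 counts, and members had from 47 counts (Timd4 in control 3) to 22854 counts (Maf in cKO 1). The dental mesenchyme marker Msx1 was present at 226 to 249 CPM in cKO and 132 to 192 CPM in controls. The enamel protease Mmp20 was present too, at 421 to 481 CPM in cKO and 527 to 573 CPM in controls. The late enamel gene Amtn was at 584 to 1372 CPM in cKO and 77.7 to 916 CPM in controls. As far as Amtn marks it, the tissue held enamel epithelium as well. Libraries stood apart in other respects. Neutrophil genes were high in cKO 1 and cKO 2. Control 1 and control 3 were low in late enamel genes other than Mmp20. Control 1 also had a high level of skeletal muscle genes and was the only male, judged by Xist and Ddx3y. Results that could rest on these libraries are given with and without them.

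Macrophage genes were higher in cKO incisors across nearly the whole list, with log2 fold changes that ran from -0.18 for Maf to 0.86 for Gpnmb. Of the 33 members, 32 had a log2 fold change (cKO over control) above 0, where 50.0% of all tested genes did. The median was 0.54 over the members and 4.85e-05 over all tested genes. In 28 members every cKO mouse lay above every control, a pattern found in 11.1% of tested genes, and no member had every cKO mouse below every control, as 12.0% of tested genes did. The members whose groups overlapped were Maf, Cd86, Lyve1, Mrc1 and Timd4. Because the members were chosen with earlier results of these data known, these shares describe the list and are no test of it. Since the tissue was sequenced in bulk, more macrophages and more RNA per macrophage cannot be told apart.

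No single member passed the threshold in edgeR's quasi-likelihood test, in which 0.0260% of all tested genes (5 genes) had an adjusted p under 0.05. The lowest adjusted p of a member was 0.0610, shared by Laptm5 and Tyrobp. At an unadjusted edgeR p under 0.05, 29 members were higher and 0 were lower, against 8.71% of tested genes higher and 8.55% lower. DESeq2, run as an alternative on the same counts, called 25 members higher and 0 lower at an adjusted p under 0.05, against 4.02% of genes higher and 3.66% lower. Whether a member counts as called therefore turned on the tool. Without control 2, edgeR called 1 member, Fcer1g (log2 fold change 0.66, adjusted p = 0.0452), while it called 0.143% of all genes higher. With cKO 3 alone against the 3 controls, the member median was 0.61. With the 3 cKO against control 2 alone, it was 0.47.

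**Figure D1:**
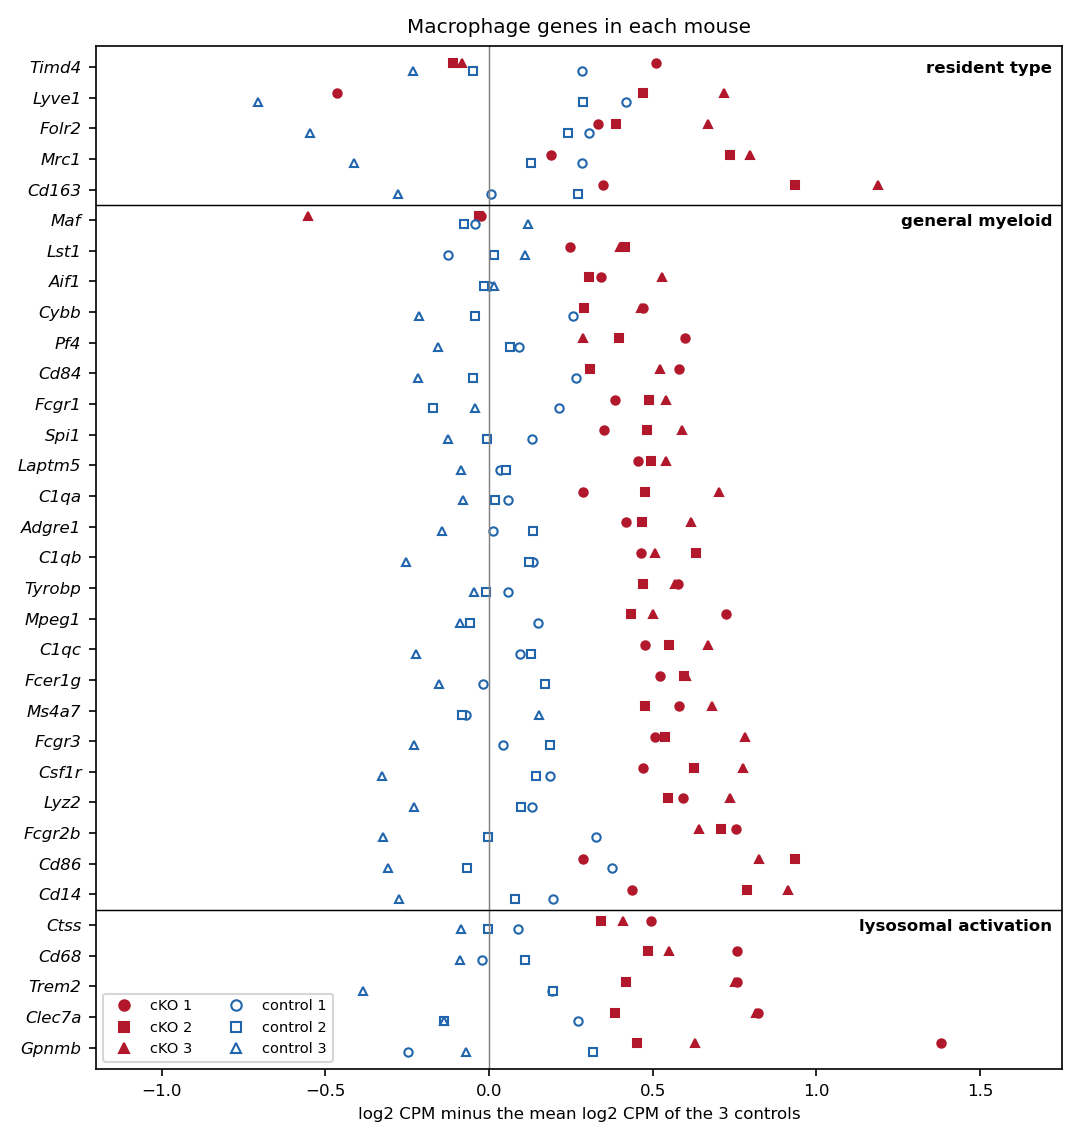
Level of each of the 33 macrophage genes in each mouse (x axis: log2 CPM minus the mean log2 CPM of the 3 controls), with filled red symbols for cKO mice and open blue symbols for controls, ordered within 3 groups by fold change. In 28 genes all red symbols lie to the right of all blue ones.

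Among the general myeloid genes the growth factor receptor, the lineage factors and the common surface and granule markers came to 15 members. Of these, 14 were above 0 and 11 were called higher by DESeq2, against 50.0% and 4.02% of all genes. Their log2 fold changes ran from -0.18 to 0.71. Csf1r encodes the receptor that keeps macrophages alive. It stood at 131, 146 and 161 CPM in cKO mice against 107, 104 and 75.1 CPM in controls. The groups were separate, with control 3 well below the other controls, and the log2 fold change was 0.61 (SE 0.14, edgeR adjusted p = 0.111, DESeq2 adjusted p = 0.00285). About 15.1% of its exonic sequence also lies in Hmgxb3 on the opposite strand, and the labels do not say whether the libraries kept strand.

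Lyz2, which encodes the lysozyme of macrophages and granulocytes, was the most abundant member per length of exon. Its level was 211, 204 and 233 CPM in cKO mice against 153, 149 and 119 CPM in controls. The lowest cKO mouse exceeded the highest control by a wide gap, and the fold was 1.53 (log2 fold change 0.62, SE 0.11, edgeR adjusted p = 0.0733). Neutrophils also express Lyz2, and their part in its level was not tested.

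Laptm5 encodes a lysosomal membrane protein of blood cells. It measured 49.3, 50.7 and 52.3 CPM in cKO mice against 36.9, 37.3 and 33.9 CPM in controls. Both groups were tight and far apart, which gave it an SE of 0.06 on a log2 fold change of 0.50 (edgeR adjusted p = 0.0610, DESeq2 adjusted p = 3.63e-08). Ms4a7, a membrane protein used as a macrophage marker, was at 14.9, 13.9 and 16.0 CPM in cKO mice against 9.51, 9.43 and 11.1 CPM in controls. The groups did not overlap, and the log2 fold change was 0.58 (SE 0.10, edgeR adjusted p = 0.0728).

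Maf was the exception of the list. It encodes a transcription factor of resident macrophages that other cell types also express. Its level was 341, 340 and 237 CPM in cKO mice against 337, 329 and 377 CPM in controls. The values of cKO 1 and cKO 2 lay among the controls and only cKO 3 was lower, so that the log2 fold change of -0.18 (SE 0.15, edgeR adjusted p = 0.571) was close to its error. About 5.34% of its exonic sequence overlaps Gm15655 on the opposite strand.

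Spi1 encodes PU.1, the factor that sets the myeloid fate, and it averaged 9.25 ± 0.76 CPM in cKO mice and 6.66 ± 0.59 CPM in controls (SD, n = 3 each). Its log2 fold change of 0.47 (SE 0.11) was close to the median of the list. Adgre1, which encodes the surface marker F4/80, averaged 36.5 ± 2.65 CPM in cKO mice and 25.8 ± 2.48 CPM in controls (SD, n = 3 each). The pore-forming protein gene Mpeg1 averaged 82.1 ± 8.78 CPM in cKO mice and 55.9 ± 5.13 CPM in controls (SD, n = 3 each). All 3 of these genes had separate groups.

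The 7 remaining markers of this kind were Aif1 (the actin-binding protein IBA1), Cd14 (a co-receptor for bacterial lipopolysaccharide), Cd84 (an adhesion receptor), Cd86 (a co-stimulator of T cells), Cybb (the catalytic subunit of the phagocyte oxidase), Lst1 and the chemokine Pf4. Cd14 had the highest log2 fold change of the general myeloid genes, 0.71 (SE 0.18), and Lst1 the lowest of those above 0, at 0.35 (SE 0.14). Of them Lst1, Cd84 and Cybb were not called by DESeq2 (adjusted p = 0.246, 0.0643 and 0.0559). Cd86 was the only one whose groups overlapped, with 6.48, 10.1 and 9.40 CPM in cKO mice against 6.89, 5.07 and 4.29 CPM in controls. It is cKO 1 that lay below control 1 there. Cybb is X-linked and control 1 is male, and control 1 was the highest control for Cybb. It was also the highest control for Csf1r and Lyz2, which are not X-linked, and the part of sex was not tested.

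PU.1 binds DNA with a purine-rich core, GAGGAA, and the stretches around start sites are shown here because its gene Spi1 is a member. RefSeq promoters (build GRCm38.p6, from 250 bases before to 50 bases after the start site) were matched by symbol for 23 of the 33 members, 27 promoters in all. The core, read on both strands as GAGGAA or TTCCTC, was present in 15 of these 23 genes (65.2%), against 31.3% of all 27025 genes with an entry. For each group of members the one of lowest p with an entry is printed, 5′ to 3′ in the direction of the gene, in lower case with each match in capitals.
Laptm5, chr4:130913066-130913365, plus strand: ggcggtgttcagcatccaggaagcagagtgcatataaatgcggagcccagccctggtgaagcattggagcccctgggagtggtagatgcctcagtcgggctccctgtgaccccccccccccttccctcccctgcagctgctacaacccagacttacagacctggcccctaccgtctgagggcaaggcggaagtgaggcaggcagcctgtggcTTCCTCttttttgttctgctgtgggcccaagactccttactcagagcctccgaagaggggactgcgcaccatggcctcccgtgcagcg
C1qc, chr4:136892865-136893164, minus strand: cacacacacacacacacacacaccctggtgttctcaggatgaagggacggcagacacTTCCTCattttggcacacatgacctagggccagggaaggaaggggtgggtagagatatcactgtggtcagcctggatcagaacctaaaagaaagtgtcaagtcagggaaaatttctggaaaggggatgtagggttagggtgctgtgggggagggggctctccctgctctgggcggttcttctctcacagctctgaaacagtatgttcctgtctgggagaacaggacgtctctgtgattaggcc
Fcer1g, chr1:171234300-171234599, minus strand: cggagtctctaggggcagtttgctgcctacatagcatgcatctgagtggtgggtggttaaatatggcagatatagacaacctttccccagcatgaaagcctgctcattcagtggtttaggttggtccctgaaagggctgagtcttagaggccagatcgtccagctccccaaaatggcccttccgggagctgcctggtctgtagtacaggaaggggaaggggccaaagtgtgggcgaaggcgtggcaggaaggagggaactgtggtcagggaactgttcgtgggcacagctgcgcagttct
Cd68, chr11:69666121-69666420, minus strand: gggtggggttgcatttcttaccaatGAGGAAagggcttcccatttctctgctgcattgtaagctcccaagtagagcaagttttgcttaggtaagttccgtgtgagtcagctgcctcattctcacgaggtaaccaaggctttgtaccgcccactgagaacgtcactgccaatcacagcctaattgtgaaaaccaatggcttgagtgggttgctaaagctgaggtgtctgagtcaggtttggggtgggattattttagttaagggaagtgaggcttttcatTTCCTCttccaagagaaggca
Cd163, chr6:124304401-124304700, plus strand: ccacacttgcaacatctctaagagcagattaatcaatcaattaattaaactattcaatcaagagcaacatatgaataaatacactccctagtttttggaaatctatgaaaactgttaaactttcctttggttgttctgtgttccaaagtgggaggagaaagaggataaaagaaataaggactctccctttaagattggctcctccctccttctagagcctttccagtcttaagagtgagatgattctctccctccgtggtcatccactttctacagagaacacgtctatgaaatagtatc
In Laptm5 the match begins 38 bases before the start site and in C1qc 193 bases before it. Cd68 holds a match 225 bases before its start site and another that begins 30 bases inside the transcript. Fcer1g and Cd163 hold none in this window. A match shows only that the letters are present, and their relation to the levels was not tested.

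The 3 chains of complement C1q, which macrophages make and which together form the molecule that recognises immune complexes and dying cells, were higher to a similar degree. Their genes lie side by side on chromosome 4, from 136880129 to 136898803 (mm10). C1qa stood at 81.0, 92.4 and 108 CPM in cKO mice against 69.2, 67.3 and 62.9 CPM in controls. The values for C1qb were 82.3, 92.6 and 84.9 CPM in cKO mice against 65.5, 65.0 and 50.0 CPM in controls. For C1qc they were 85.1, 89.5 and 97.2 CPM in cKO mice against 65.3, 66.8 and 52.5 CPM in controls. In all 3 genes the lowest cKO mouse was above the highest control, as in 11.1% of tested genes. The log2 fold changes were 0.50, 0.53 and 0.56 for C1qa, C1qb and C1qc (SE 0.10, 0.11 and 0.10), with edgeR adjusted p of 0.0934, 0.0931 and 0.0819. DESeq2 called all 3 (adjusted p = 0.00174, 0.00141 and 0.000202), where it called 4.02% of all genes higher.

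The Fc receptors and their signalling adaptors, 5 members, behaved alike, with log2 fold changes from 0.46 to 0.68 and separate groups in every one. Over all tested genes, 11.1% had every cKO mouse above every control. Tyrobp encodes DAP12, the adaptor through which TREM2 and other receptors signal. It was at 27.2, 25.2 and 27.0 CPM in cKO mice against 19.0, 18.1 and 17.7 CPM in controls. The replicates of both groups were nearly equal, and the log2 fold change of 0.54 had an SE of 0.06 (edgeR adjusted p = 0.0610, DESeq2 adjusted p = 2.73e-08).

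Fcer1g encodes the gamma chain that carries the signal of activating Fc receptors. Its level was 23.5, 24.7 and 24.8 CPM in cKO mice against 16.1, 18.4 and 14.7 CPM in controls. The groups were separate and the log2 fold change was 0.57 (SE 0.09, edgeR adjusted p = 0.0669). Fcgr3, a low-affinity activating receptor for IgG, measured 38.0, 38.8 and 45.9 CPM in cKO mice against 27.5, 30.4 and 22.8 CPM in controls, again without overlap (log2 fold change 0.60, SE 0.12).

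Fcgr2b, the inhibitory receptor for IgG, had the highest log2 fold change of this group at 0.68 (SE 0.15), and Fcgr1, the high-affinity receptor, the lowest at 0.46 (SE 0.12). Activating and inhibitory receptors thus stood higher together. Fcgr2b, Fcgr3 and Fcer1g lie within one stretch of chromosome 1, from 170958617 to 171234365. Most of the counts of Fcgr2b and Fcgr3 were not whole numbers (83.3% of their values), which happens when reads are shared between genes. That share is not particular to them. It was 100% in Lyz2 and Adgre1 and 0% in C1qa, and over all genes only 45.6% to 48.0% of values per library were whole. The split of reads between these receptors is uncertain and was not tested.

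The lysosomal activation genes had a median of 0.63, and cKO and control mice were separate in all 5 members. The order of the medians of the 3 kinds of genes changed with the libraries used. Without cKO 1 they were 0.52 for lysosomal activation, 0.54 for general myeloid and 0.52 for resident type genes, and with cKO 3 alone against the 3 controls 0.61, 0.59 and 0.64. DESeq2 called all 5 lysosomal activation genes higher, against 4.02% of all genes. Every cKO mouse lay above every control in 11.1% of tested genes. Cd68 encodes a glycoprotein of the lysosomal membrane, and its level was 25.3, 20.9 and 21.9 CPM in cKO mice against 14.7, 16.1 and 14.1 CPM in controls. The cKO mice were all above the controls by a clear gap (1.52-fold, log2 fold change 0.60, SE 0.09, edgeR adjusted p = 0.0669). Ctss encodes cathepsin S, the protease that trims the class II invariant chain. It stood at 74.5, 66.98 and 70.3 CPM in cKO mice against 56.2, 52.8 and 49.8 CPM in controls. Its log2 fold change was 0.42 (SE 0.07, edgeR adjusted p = 0.0669), the lowest of the 5.

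Clec7a encodes Dectin-1, a receptor for fungal glucans, and had 5.61, 4.14 and 5.59 CPM in cKO mice against 3.84, 2.89 and 2.89 CPM in controls. The lowest cKO mouse lay just above the highest control (log2 fold change 0.68, SE 0.18, DESeq2 adjusted p = 0.0156). Gpnmb, a glycoprotein induced in lipid-laden macrophages, had the highest log2 fold change of all members, 0.86 (SE 0.28, DESeq2 adjusted p = 0.0448). Its level was 6.09, 3.20 and 3.62 CPM in cKO mice against 1.97, 2.92 and 2.23 CPM in controls. It is cKO 1 that carries much of that difference, and without it the log2 fold change was 0.52. Trem2, the lipid-sensing receptor, averaged 6.38 ± 0.82 CPM in cKO mice and 4.13 ± 0.88 CPM in controls (SD, n = 3 each).

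All 5 lysosomal activation genes were lowest in cKO 2 among the cKO mice, and all 5 were highest in cKO 1. In Trem2 and Clec7a, however, cKO 1 and cKO 3 were nearly equal. Trem2 was at 6.87 CPM in cKO 1 and 6.84 CPM in cKO 3, and Clec7a at 5.61 and 5.59 CPM. Their mean log2 level relative to the mean of the controls was 0.84, 0.41 and 0.63 in cKO 1, 2 and 3, against 0.06, 0.10 and -0.15 in controls 1, 2 and 3. All 3 cKO values exceeded all control values.

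The resident type genes differed most between mice of the same group, with an SD of their mean log2 level of 0.32 within groups, against 0.09 for general myeloid and 0.18 for lysosomal activation genes. All 5 were above 0 with a median of 0.42, but 2 had separate groups (Cd163 and Folr2), 2 had an unadjusted edgeR p under 0.05 (Cd163 and Mrc1) and 1 was called by DESeq2 (Cd163). Over all tested genes, 50.0% were above 0, 11.1% had every cKO mouse above every control and 8.71% were higher at that p. DESeq2 called 4.02% of all genes higher. Cd163 encodes the scavenger receptor for haemoglobin bound to haptoglobin. It was at 34.5, 51.8 and 61.7 CPM in cKO mice against 27.2, 32.7 and 22.3 CPM in controls. The lowest cKO mouse was close above the highest control, and the log2 fold change was 0.85 (SE 0.22, edgeR adjusted p = 0.134, DESeq2 adjusted p = 0.00415).

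Mrc1 encodes CD206, the mannose receptor. It stood at 137, 199.7 and 208 CPM in cKO mice against 146, 131 and 90.0 CPM in controls. Here cKO 1 fell among the controls while cKO 2 and cKO 3 lay far above them (log2 fold change 0.57, SE 0.22, edgeR adjusted p = 0.242). Folr2 encodes folate receptor beta and measured 9.97, 10.4 and 12.6 CPM in cKO mice against 9.79, 9.36 and 5.42 CPM in controls. The groups were separate by a narrow margin (log2 fold change 0.42, SE 0.22, edgeR adjusted p = 0.388). About 63.1% of its exonic sequence overlaps Gm10602 on the opposite strand, and unless the libraries kept strand, which is not stated, the reads of the pair cannot be told apart.

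Lyve1 encodes a hyaluronan receptor that lymphatic vessels also carry. Its level was 25.3, 48.4 and 57.5 CPM in cKO mice against 46.7, 42.6 and 21.4 CPM in controls. The groups overlapped: cKO 2 and cKO 3 lay above every control, cKO 1 lay below control 1 and control 2, and control 3 was the lowest of all, and the log2 fold change was 0.24 (SE 0.36, edgeR adjusted p = 0.778). Without cKO 3 it was -0.0013 and without control 3 it was -0.030. Timd4 encodes TIM4, which binds phosphatidylserine on dying cells, and was the least abundant member per length in the mean over the 6 mice. It had 1.33, 0.86 and 0.88 CPM in cKO mice against 1.14, 0.90 and 0.79 CPM in controls. The groups overlapped (log2 fold change 0.12, SE 0.25), and without cKO 1 the value was -0.11.

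Across the 5 resident type genes the mean log2 level relative to the controls was 0.18, 0.48 and 0.66 in cKO 1, 2 and 3, against 0.26, 0.18 and -0.43 in controls 1, 2 and 3. The groups overlapped, since cKO 1 lay below control 1. In cKO 1, 4 of the 5 genes were the lowest of the cKO mice, and in cKO 3, 4 were the highest. Control 3 was the lowest control for all 5, and for 26 of the 33 members. Without control 3 the resident median was 0.20, and with the 3 cKO against control 2 alone it was 0.23, while cKO 3 alone against the 3 controls gave 0.64. The general myeloid mean was 0.46, 0.49 and 0.56 in cKO 1, 2 and 3, against 0.11, 0.03 and -0.14 in controls 1, 2 and 3, with no overlap.

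The resident mean minus the lysosomal mean was -0.66, 0.07 and 0.03 in cKO 1, 2 and 3, against 0.20, 0.08 and -0.28 in controls 1, 2 and 3. The ranges of the groups overlapped, and cKO 1 had the lowest value of the 6 mice, with control 3 next.

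**Figure D2:**
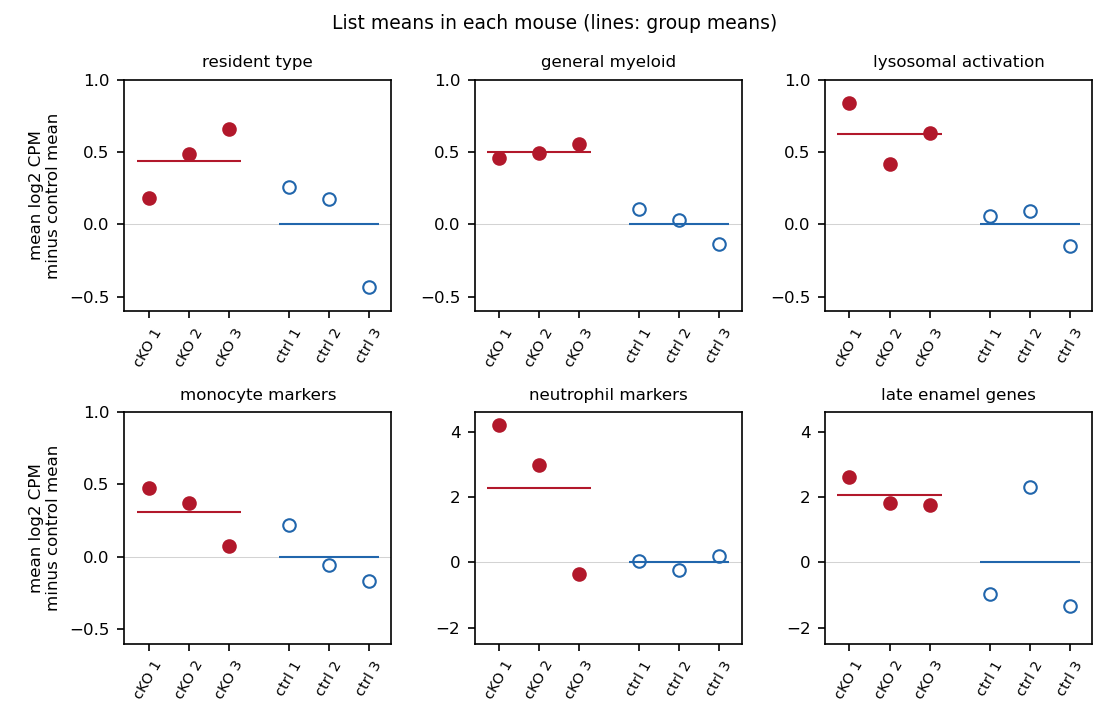
Mean log2 CPM of a gene list in each mouse, relative to the mean of the 3 controls (y axis), for the 3 groups of macrophage genes and for monocyte, neutrophil and late enamel genes, with cKO mice as filled red points left of the controls as open blue points and a line at each group mean. General myeloid and lysosomal activation genes separate the groups, resident type genes do not, and neutrophil genes are high in cKO 1 and cKO 2 alone. The y axis differs between panels.

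**Figure D3:**
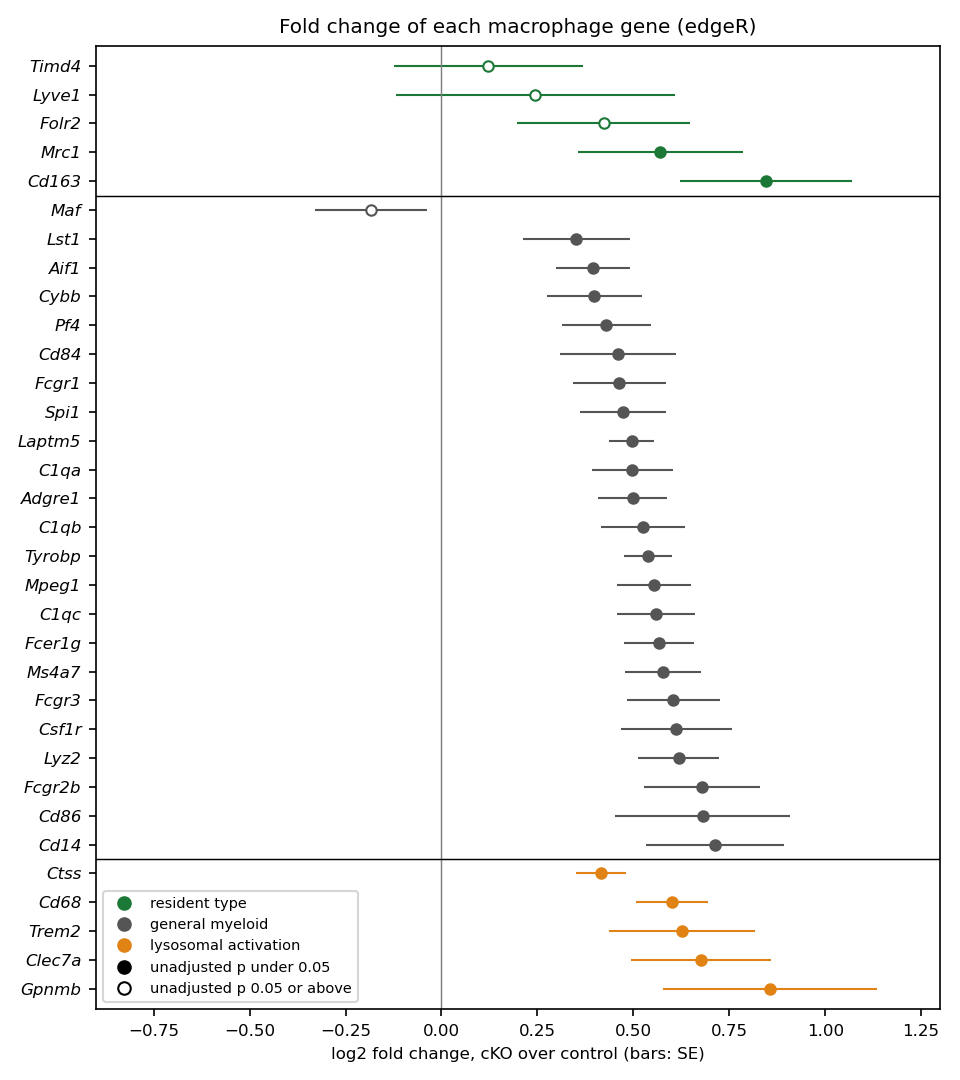
Log2 fold change (cKO over control, x axis) of the 33 macrophage genes with its standard error, coloured by group, where filled points had an unadjusted edgeR p under 0.05. All but Maf lie right of 0, and the 4 open points are Timd4, Lyve1, Folr2 and Maf.

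On a scale of CPM per kb of exon, the mean level over the 6 mice ran from 135 for Lyz2 to 0.45 for Timd4. The length is that of all annotated exons of a gene joined, not of a transcript, so the order of genes is approximate. For Csf1r it came from a gene model other than the deposited one. After Lyz2 came C1qa at 77.1, C1qb at 67.4, Ctss at 45.5, Maf at 39.6, C1qc at 39.4, Tyrobp at 33.5 and Mrc1 at 23.9 CPM per kb. Of the 32 pairs of neighbours in this order, 27 overlapped in the range over the cKO mice, over the controls or in both. In the other 5 the higher gene lay above the next one without overlap in either group: Lyz2 over C1qa, C1qb over Ctss, Tyrobp over Mrc1, Laptm5 over Adgre1 and Trem2 over Gpnmb. The order also differed between the groups. Maf, for example, had rank 7 in cKO mice (37.1 CPM per kb) and rank 4 in controls (42.2 CPM per kb), while C1qc had rank 5 in cKO mice (46.9 CPM per kb) and rank 6 in controls (31.9 CPM per kb). By the mean over the 6 mice, the resident type genes were spread over this order, with Mrc1 in rank 8, Lyve1 in rank 15, Cd163 in rank 18, Folr2 in rank 19 and Timd4 in rank 33. The lysosomal genes likewise ran from Ctss in rank 4 and Cd68 in rank 13 to Clec7a in rank 29, Trem2 in rank 31 and Gpnmb in rank 32.

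**Figure D4:**
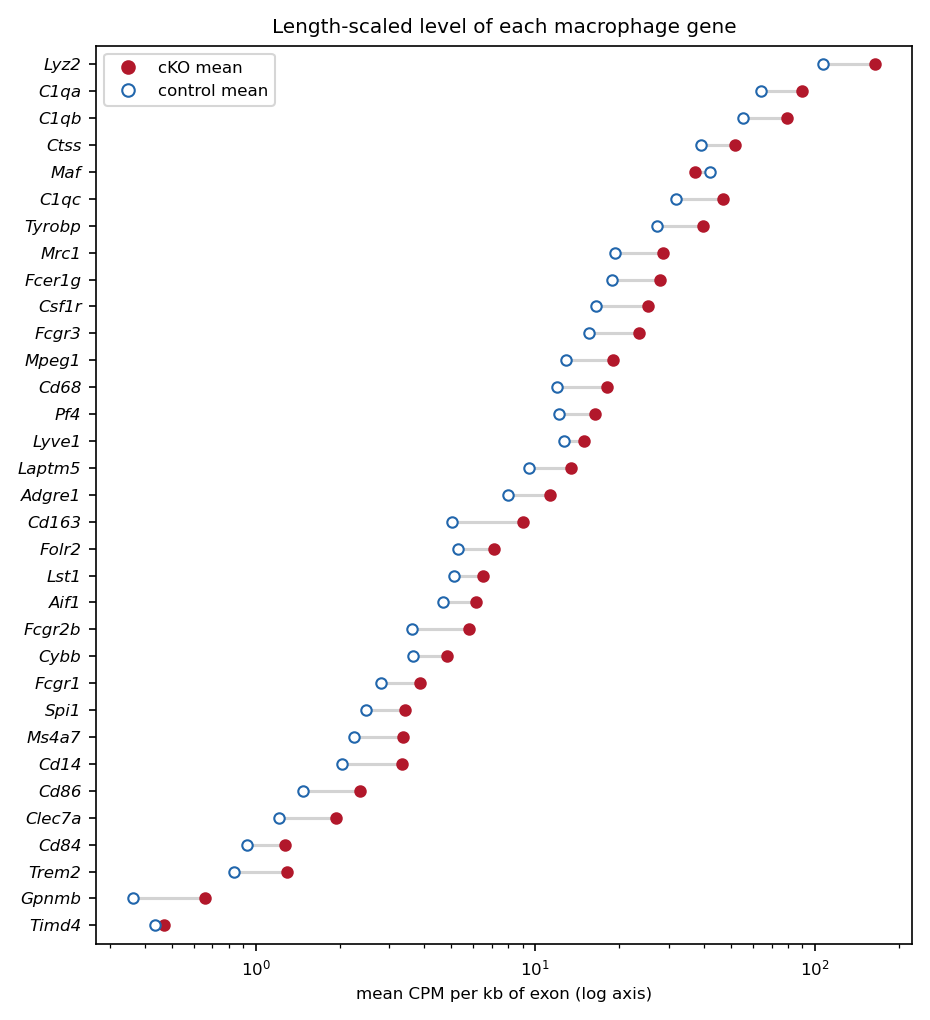
Mean level of the 33 macrophage genes per length (x axis: CPM per kb of exon, log axis) in cKO mice (filled red) and controls (open blue), in order of the mean over all 6 mice. The cKO mean is to the right of the control mean in all genes but Maf.

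The ligands of the CSF1 receptor and other macrophage transcription factors, 11 genes, had a median of 0.25. DESeq2 called 5 higher and 1 lower, against 4.02% and 3.66% of all genes. The ligand Csf1 was at 72.8, 76.3 and 80.0 CPM in cKO mice against 65.7, 59.9 and 45.7 CPM in controls (log2 fold change 0.42, SE 0.13, DESeq2 adjusted p = 0.0415). The second ligand, Il34, was low throughout, at 1.61, 1.79 and 1.36 CPM in cKO mice against 1.06, 0.59 and 0.78 CPM in controls (log2 fold change 0.98, SE 0.25, DESeq2 adjusted p = 0.0196). Both ligands had separate groups, in the same direction as Csf1r. They were named after their values were seen. Irf8, which directs monocyte and macrophage development, was higher with separate groups (log2 fold change 0.52, SE 0.12, DESeq2 adjusted p = 0.00336).

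Among 24 further surface and uptake genes of macrophages, 21 were above 0 with a median of 0.40, and DESeq2 called 15 higher and 1 lower. Over all tested genes 50.0% were above 0, and DESeq2 called 4.02% higher and 3.66% lower. The scavenger receptor Stab1 was at 219.7, 214 and 244 CPM in cKO mice against 172, 167 and 139 CPM in controls (log2 fold change 0.50, SE 0.10, DESeq2 adjusted p = 0.000309).

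The 19 other lysosomal enzymes and membrane proteins, which most cell types express, had a median of only 0.15. Of these, 18 were above 0, against 50.0% of all tested genes. DESeq2 called 2 higher (Ctsa and Hexa) and 1 lower (Npc2), against 4.02% and 3.66% of all genes. Both enzyme genes had small log2 fold changes, 0.30 for Ctsa (SE 0.08) and 0.34 for Hexa (SE 0.09). Of the activation and cytokine genes, 13 of 17 could be tested, with a median of 0.50, and DESeq2 called 2 higher and 0 lower, with no adjusted p for 4. These were the lipid carrier Apoe, with 441, 523 and 502 CPM in cKO mice against 387, 266 and 283 CPM in controls, and the chitinase-like Chil3, whose groups overlapped. Apoe is made by many cell types besides macrophages, and its log2 fold change was 0.65 (SE 0.15).

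Markers of neighbouring blood cells moved differently from mouse to mouse. Of the 12 neutrophil and marrow granulocyte genes, 7 could be tested and all 7 were above 0, against 50.0% of all tested genes. DESeq2 called 4 of them higher, against 4.02% of all genes. The lowest edgeR p belonged to S100a9 (17.5, 6.08 and 1.17 CPM in cKO mice against 0.63, 0.60 and 0.95 CPM in controls) and S100a8. The 12 genes summed to 52.0, 23.4 and 2.83 CPM in cKO 1, 2 and 3, against 2.57, 2.06 and 3.49 CPM in controls 1, 2 and 3. In cKO 3 the sum lay within the control range while the member median against the 3 controls was 0.61. Erythroid genes, 6 of 7 tested, summed to 84.2, 115 and 32.0 CPM in cKO mice and to 33.03, 25.9 and 53.9 CPM in controls, and DESeq2 called 1 of them higher (Alas2). Slc4a1 was the erythroid gene of lowest p.

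Of the 6 monocyte genes none was called by either tool, 5 were above 0 and the median was 0.38. Their sum was 108 to 157 CPM in cKO mice and 77.1 to 120 CPM in controls, so the groups overlapped. Most of that sum was F13a1, at 67.2, 110 and 113 CPM in cKO mice against 74.7, 74.2 and 41.9 CPM in controls. F13a1 and Ms4a4c had the lowest p, at adjusted edgeR p of 0.309 and 0.380. The log2 fold changes were 0.61 for F13a1 (SE 0.27) and 0.31 for Ms4a4c (SE 0.16). None of the 6 had an unadjusted edgeR p under 0.05, where 8.71% of all tested genes were higher at that p, and the difference from the macrophage genes was not tested.

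The list of late enamel genes, 6 in all with Mmp20 among them, summed to 1540 to 3104 CPM in cKO mice. In controls 1, 2 and 3 the sums were 644, 2325 and 671 CPM. DESeq2 called 0 higher and 1 lower (Mmp20), against 4.02% and 3.66% of all genes. Slc24a4 had the next lowest p. In this sum control 2 thus resembled the cKO mice, and against control 2 alone the member median was 0.47. Mmp20 went otherwise, at 527 CPM in control 2, beside 532 and 573 CPM in controls 1 and 3 and above all cKO mice (421 to 481 CPM). It made up most of the sum in controls 1 and 3. Amtn was at 77.7, 916 and 78.4 CPM in controls 1, 2 and 3, against 1372, 733 and 584 CPM in cKO mice. Skeletal muscle genes, 6 in all and led by Actn3 and Mylpf, summed to 12.2 to 14.8 CPM in cKO mice and to 180, 14.3 and 15.4 CPM in controls 1, 2 and 3, and neither tool called one, though DESeq2 gave no adjusted p for 4 of the 6. Without control 1 the member median was 0.58. The part of these cells in the levels of single members was not tested.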

How the data were processed

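RNA from 6 mice was sequenced in single-end reads of 75 cycles. STAR 2.6.1d, Partek and mm10 are recorded in the submitters' processing notes. Annotation, counting settings and strand were not given in the sources used here, which limits how shared reads can be judged. The authors deposited estimated counts per gene. These need not be whole, because a read can be shared between genes, and per library 45.6% to 48.0% were whole (tolerance 1e-09). A second deposited table, the same counts rescaled, was not used.

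Estimated counts were rounded, filtered (filterByExpr, minimum count 10, minimum total 15) and scaled by TMM. The main test, with no covariate, was the two-sided quasi-likelihood F-test of edgeR 4.0.16 (R 4.3.3) over the 6 libraries. Its p-values were adjusted by Benjamini-Hochberg across 19264 tested genes. DESeq2 1.42.0, limma-voom (limma 3.58.1), other scalings and filters and leaving out each library were alternatives. CPM divides counts by the TMM-scaled library total. Exon lengths were the union of exons in GENCODE M21, on the same assembly but perhaps not the authors' annotation, and promoters were RefSeq's. At these depths 1 count is worth 0.0149 to 0.0186 CPM. The labels number each mouse, so replicates are separate animals, and no 2 libraries repeated each other. The labels state no batch. They mention pairs of samples without naming them, so none was used. The code was tested on simulated data.

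Values per mouse are given for the resident type genes and, in each other group, for the 3 members highest per length and the 3 of lowest p. Gpnmb and Cd86 were added after their values were seen. Of 16 lists of other genes (158 genes, 2 of them not in the table), the 2 of lowest p are named, apart from 2 genes that are not reported here. The members and all lists were chosen with earlier results of these data known.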

Additional observations from a re-analysis of the deposited data

How the results depend on the processing

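The count of members called higher at an adjusted p under 0.05 was 0 in edgeR with each scaling and filter and in limma-voom, 25 in DESeq2, and 0 to 1 when 1 library was left out. The count of members above 0 stayed between 31 and 32 over all alternatives run. The count at an unadjusted p under 0.05 stayed between 25 and 29, leaving aside the comparisons with cKO 3 alone or control 2 alone. The median log2 fold change kept its sign in every alternative, at 0.46 to 0.61 for all members, 0.20 to 0.64 for resident type, 0.46 to 0.59 for general myeloid and 0.49 to 0.74 for lysosomal activation genes. Among single members 2 changed sign. With 1 library left out, Lyve1 ran from -0.030 to 0.52 and Timd4 from -0.11 to 0.28, and Timd4 was -0.094 with cKO 3 alone against the 3 controls. Both changes go with fewer samples. The comparisons with cKO 3 alone and with control 2 alone were chosen after seeing the data, and they assume that the lone library varies like the others. A filter of 1 CPM left out Timd4. No paired analysis was possible because the labels do not say which samples form a pair. Depth limits Timd4 most, at 47 to 89 counts a library. Over all genes edgeR called 4 higher and 1 lower, DESeq2 698 and 635, and edgeR without control 2 called 28 and 44.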

Other observations

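The calls in other lists of cell markers are read beside the shares over all genes. DESeq2 called 4.02% of genes higher and 3.66% lower, and edgeR called 0.0260% in either direction. With so few genes per list, an absence of calls says little. Of 8 osteoclast genes, 7 could be tested and neither tool called one, though DESeq2 gave no adjusted p for 3 of them. The matrix protease Mmp9, which osteoclasts share with other cells, was at 18.7, 18.9 and 8.26 CPM in cKO mice against 32.3, 25.2 and 44.5 CPM in controls (log2 fold change -1.15, SE 0.34, edgeR adjusted p = 0.158), while the osteoclast protease Ctsk had a log2 fold change of 0.26 (SE 0.11). Of 5 lymphatic endothelium genes tested, DESeq2 called 1, the receptor Flt4, which was lower (log2 fold change -0.79, SE 0.18), and Pdpn had the next lowest p. The defining lymphatic factor Prox1 was at 0.58 to 0.88 CPM in cKO mice and 0.63 to 0.90 CPM in controls.

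Of 5 T and NK cell genes tested, DESeq2 called 1, Cd4 (log2 fold change 0.62, SE 0.14), and Cd3g overlapped between the groups. Of 4 B cell genes tested it called 0 and gave no adjusted p for 2, with Cd79b at a log2 fold change of 0.62 and Vpreb1 next. None of 8 dendritic cell genes (Itgax and Ccr7 of lowest p) or of 5 mast cell genes tested (Mcpt4 and Cma1) was called by either tool or had an unadjusted edgeR p under 0.05. Over all tested genes, 8.71% were higher and 8.55% lower at that unadjusted p. Of 8 dental mesenchyme genes DESeq2 called 2 higher, Pax9 (log2 fold change 0.41, SE 0.08) and Msx1 (0.48, SE 0.14).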
